A study of Mus musculus with 12 samples.

Results

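The 34 genes described here are markers of astrocytes. Of these, 19 mark astrocyte identity, 11 belong to the pan-reactive class of genes that astrocytes raise after many kinds of insult, and 4 belong to the class linked to inflammation. They were chosen by symbol, and each matched exactly 1 of the 48795 genes in the table of read counts. RNA came from the piriform cortex, a region of olfactory cortex, of mice aged 12 months on a C57BL/6 background. One group was 6 mice heterozygous for a Q140 knock-in, a model of Huntington's disease in which the mouse Htt gene carries a long CAG repeat, and the other was 6 wild types. Each group held 3 females and 3 males. The knock-in acts in every cell that uses Htt, so the allele was not limited to astrocytes, and the tissue was sequenced whole. The comparison addresses how astrocyte transcripts differ between this model and normal cortex at this age.

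Astrocytes clear glutamate and potassium from the space around synapses, convert glutamate to glutamine, buffer pH, couple to one another through gap junctions, and wrap blood vessels with end-feet rich in water channels. When tissue is injured or inflamed they become reactive: intermediate filament genes such as Gfap and Vim go up, along with secreted protease inhibitors, cytokine receptors and matrix receptors. In Huntington's disease and its models, the glutamate transporter of astrocytes and their potassium channel have been studied as points where astrocyte function may be lost.

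Total reads per animal ranged from 19587208 to 35198602. Htt itself, at 196 ± 8.15 CPM in wild types and 151 ± 8.19 in Q140 (SD, n = 6 each), was lower in every Q140 animal (143 to 164) than in any wild type (180 to 204). It changed by -0.37 on the log2 scale (SE 0.0428, edgeR adjusted p = 0.000203). CPM values here are read counts per 1e+06 reads of library size after the TMM correction for library composition. Fold changes are Q140 against wild type with sex as a covariate, and a gene passed the test where edgeR's quasi-likelihood p, adjusted by Benjamini-Hochberg over all 17725 genes tested, was below 0.05. Among those genes 11.2% passed in either direction, 4.5% higher and 6.69% lower in Q140.

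All 19 identity genes were present in every animal, with wild type means from 18.9 CPM (Id3) to 4415 CPM (Slc1a2). Levels between genes are compared per gene length, on the deposited FPKM. Glutamine synthetase (Glul) was highest at 500 ± 39.8 FPKM in wild types (SD, n = 6), followed by the glutamate transporter Slc1a2 at 331 ± 34.1, the glycolytic enzyme Aldoc at 234 ± 13.2 and the sodium pump subunit Atp1b2 at 154 ± 7.31. S100b came next at 95.0 ± 6.60 FPKM. Among reactive genes Gfap stood far above the rest at 53.5 ± 10.7 FPKM, and Vim was next at 7.82 ± 2.81. Cd44, Timp1, Steap4 and Lcn2 formed the foot of the order, from 0.565 ± 0.128 FPKM for Cd44 to 0.0391 ± 0.0508 for Lcn2.

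In this order 8 of the 33 neighbouring pairs had wild type ranges that did not overlap, all of them among the identity genes. The first 4 genes were each separated from the next. Neighbours further down, such as Ntsr2 and Gja1 or Mlc1 and Gfap, did not differ beyond the spread between animals. In Q140 the order was nearly the same: 26 of 34 genes kept their place and none moved by more than 2 places.

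**Figure D1:**
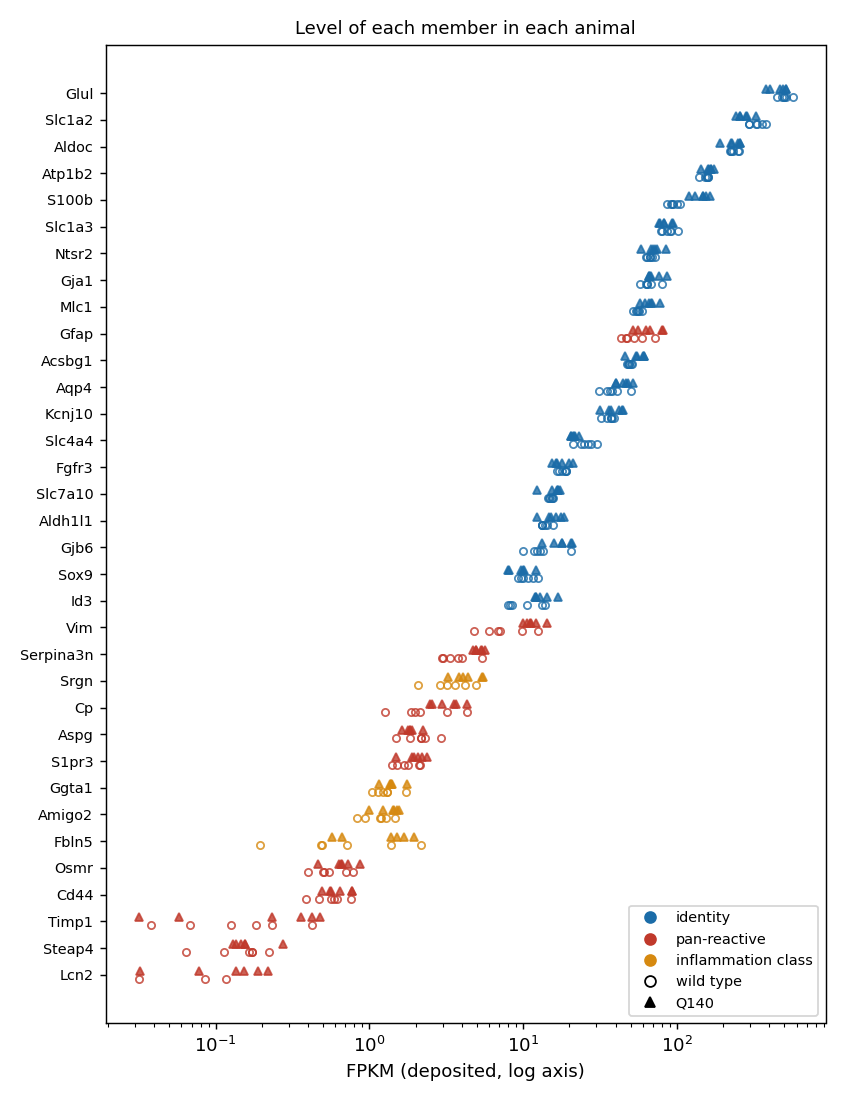
Deposited FPKM of each of the 34 genes in each animal, on a log axis, ordered by the wild type mean; open circles are wild types and triangles Q140. The identity genes fill the upper part and 4 of them exceed 100 FPKM in wild types, while 6 reactive genes lie below 1 FPKM; the 3 wild types with no Lcn2 read are not drawn because the axis is logarithmic.

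Before the groups are compared, some single animals stood apart from their group across many of these genes. Wild type 4 was the highest wild type for 12 of the 19 identity genes, 7 of the 9 pan-reactive genes that passed the filter on low counts and 3 of the 4 inflammation-class genes. Wild type 3 was the lowest for 11, 5 and 2 of them. Among Q140 animals, Q140 5 was lowest for 13 of the 19 identity genes, and Q140 1 and Q140 3 were each highest for 9.

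**Figure D2:**
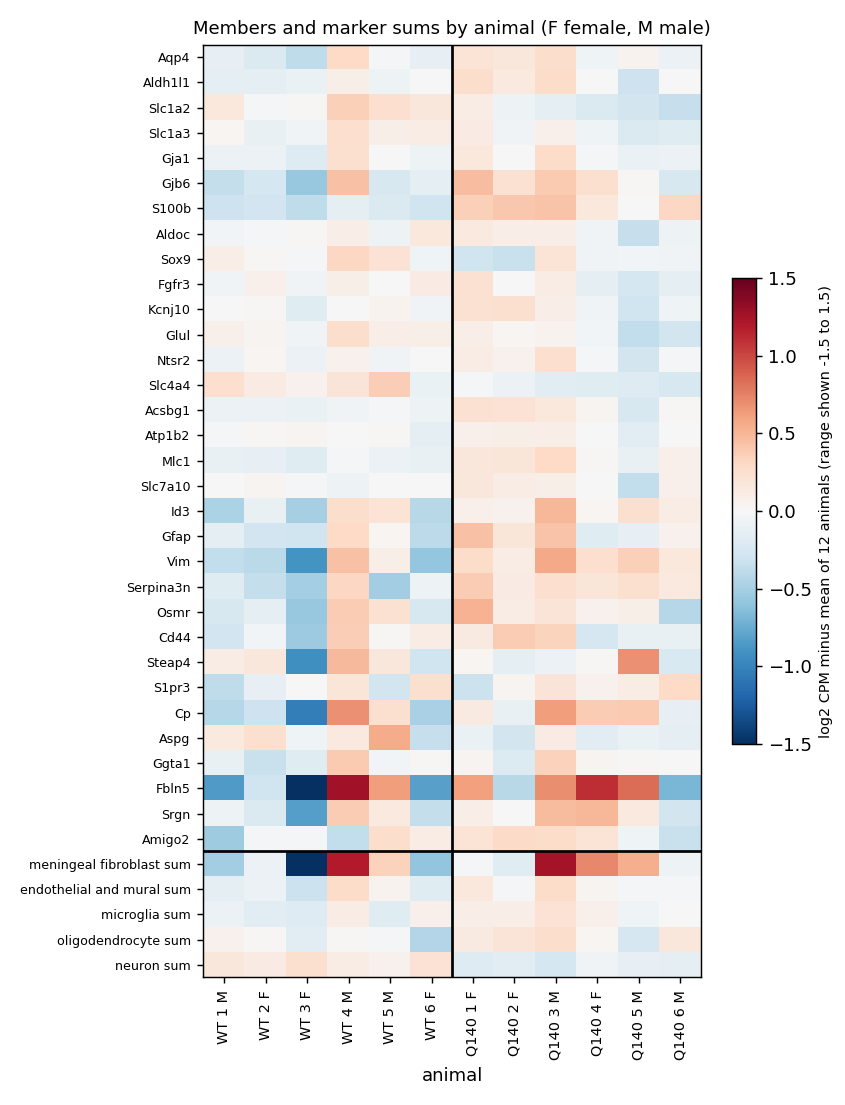
Log2 CPM of each tested gene in each animal minus its mean over the 12 animals, with the summed markers of 5 other cell types below the line; the colour scale ends at -1.5 and 1.5. Wild type 4 is raised and wild type 3 lowered over most reactive genes and over the meningeal fibroblast sum, while the neuron sum is lower in all 6 Q140 animals.

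Of the 34 genes, 32 passed the filter on low counts and were tested. Expression rose in Q140 for 4 of them, S100b, Mlc1, Vim and Serpina3n, and fell for 2, Slc4a4 and Slc1a2. The other 26 did not pass. The 2 that fell make a share close to the 6.69% of all genes called lower, and the 4 that rose stand beside 4.5% of all genes called higher. Fold changes were positive for 24 of the 32, with a median log2 fold change of 0.13, against 51.3% positive and a median of 0.0045 over all genes. Unadjusted p was below 0.05 for 11 of the 32, and for 26.7% of all genes. Groups did not overlap for 1 of the 32, S100b, and for 4.59% of all genes.

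The promoters of 3 genes that passed are shown because they lie outside any annotated exon. These are S100b and Serpina3n, which rose, and a downstream start of Slc4a4, which fell. The part of these sequences in the fold changes was not tested. Each is the 250 bases before a RefSeq start on GRCm38.p6, read on the gene's strand. Capitals mark a CCAAT box, spelled CCAAT or its reverse complement ATTGG. S100b lies at chr10:76253586-76253835 on the plus strand, Serpina3n at chr12:104406458-104406707 on the plus strand and Slc4a4 at chr5:89027716-89027965 on the plus strand.
S100b: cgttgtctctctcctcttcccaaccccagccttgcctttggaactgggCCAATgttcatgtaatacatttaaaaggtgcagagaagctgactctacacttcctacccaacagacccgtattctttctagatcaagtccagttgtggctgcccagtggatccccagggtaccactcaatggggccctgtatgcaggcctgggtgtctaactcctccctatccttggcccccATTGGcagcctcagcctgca
Serpina3n: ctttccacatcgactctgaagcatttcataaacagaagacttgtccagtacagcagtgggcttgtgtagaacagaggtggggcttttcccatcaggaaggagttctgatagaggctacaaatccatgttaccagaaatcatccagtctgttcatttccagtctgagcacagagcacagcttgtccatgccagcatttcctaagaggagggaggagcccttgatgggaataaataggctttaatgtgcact
Slc4a4: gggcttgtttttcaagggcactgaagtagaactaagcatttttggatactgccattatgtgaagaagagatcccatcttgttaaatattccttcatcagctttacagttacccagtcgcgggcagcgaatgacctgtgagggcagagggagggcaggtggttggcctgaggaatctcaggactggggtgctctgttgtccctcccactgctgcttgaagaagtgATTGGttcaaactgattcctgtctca
The S100b promoter holds a CCAAT box 202 to 198 bases and another 20 to 16 bases before the start, and that of Slc4a4 holds 1 at 26 to 22 bases. Serpina3n has none, and none of the 3 holds a TATA box (TATAAA or its reverse complement), which 12.4% of all promoters do. Among the 32851 promoters in RefSeq, 33.8% hold a CCAAT box in this window, and 14 of the 37 promoters listed for 31 of the 34 genes do. The STAT core TTCNNNGAA, a site form for the factors that act below cytokine receptors, is in 5 of the 37 (Acsbg1, Aldoc, Ntsr2, Slc1a3 and Steap4) and in 7.02% of all promoters, both strands being covered by its symmetry. The AP-1 core TGANTCA is in 2 of the 37 (Cp and Gja1) and in 6.75% of all, and the full NFI palindrome in 0 of the 37 and in 0.0365% of all. The CCAAT and TATA boxes were added to the motifs after the sequences had been seen.

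Of the 34 genes S100b had the smallest p. It encodes a calcium-binding protein of astrocytes that is also made by some oligodendrocytes. The gene (ENSMUSG00000033208) lies on chromosome 10 from 76253853 to 76261159 on GRCm38. Wild types had 133 to 158 CPM with a median of 141, and Q140 animals 172 to 234 with a median of 218. Every Q140 animal was above every wild type, including Q140 5, the lowest of its group. The means were 143 ± 8.70 and 211 ± 23.7 CPM (SD, n = 6 each), so that expression rose by 0.56 on the log2 scale (SE 0.0704, edgeR adjusted p = 0.000351). Dip2a overlaps S100b on the opposite strand but shares 0 exonic bases with it, and its own log2 fold change was -0.0056 (SE 0.0342), with no call.

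Markers of oligodendrocytes moved in the same direction as S100b. Their 12 listed genes summed to 3597 to 5096 CPM in wild types and 4106 to 5862 in Q140, and none was at 0. Of the 12, 6 rose, among them Mog, Mag, Cnp, Enpp6 and Ermn, beside 4.5% of all genes called higher. The part of oligodendrocytes in the S100b result was not tested. In bulk tissue, more cells of a type and more RNA per cell cannot be told apart, for these and all other genes below.

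Mlc1, a membrane protein of astrocyte end-feet that is lost in a human leukodystrophy, rose by a smaller amount. It lies on chromosome 15 from 88955884 to 88979007 (ENSMUSG00000035805, minus strand). Wild types ranged from 150 to 168 CPM with a median of 158, and Q140 animals from 157 to 210 with a median of 185. The groups overlapped through Q140 5, the lowest of the Q140 animals. The log2 fold change was 0.22 (SE 0.0598, edgeR adjusted p = 0.0320, means 158 ± 5.61 and 184 ± 18.4, SD, n = 6 each). It did not pass in 7 of the 12 fits that leave out 1 animal, with adjusted p from 0.0543 to 0.0795 there.

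Slc4a4 and Slc1a2, transporters for bicarbonate and glutamate, fell. Slc4a4 encodes the sodium-bicarbonate cotransporter by which astrocytes buffer pH (ENSMUSG00000060961, chromosome 5 from 88886818 to 89239653). It ranged from 236 to 327 CPM in wild types with a median of 281, and from 214 to 249 in Q140 with a median of 223. The ranges overlapped only through wild type 6, whose 236 CPM lay among the Q140 values. The means were 282 ± 31.2 and 228 ± 12.8 CPM (SD, n = 6 each) and the log2 fold change was -0.30 (SE 0.0655, edgeR adjusted p = 0.0100).

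Slc1a2 is the main glutamate transporter of the forebrain (ENSMUSG00000005089, chromosome 2 from 102658659 to 102790784), and it is also found in some axon terminals. Its wild types ranged from 3912 to 5034 CPM with a median of 4417, and Q140 animals from 3098 to 4277 with a median of 3481. The highest Q140 animal, Q140 1, was inside the wild type range and the other 5 were below it. The log2 fold change was -0.31 (SE 0.0823, edgeR adjusted p = 0.0275), from means of 4415 ± 423 and 3558 ± 419 CPM (SD, n = 6 each). It did not pass without wild type 1, wild type 5, Q140 3, Q140 4 or Q140 6 (adjusted p 0.0546 to 0.0597). An antisense gene, Gm13872, shares 189 of the exonic bases of Slc1a2, and the strand setting of the counting is not given in the sources used here.

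Neuronal markers were lower in the same animals. The 9 listed genes summed to 12087 to 13692 CPM in wild types and to 9652 to 11213 in Q140, without overlap. Of the 9, 5 fell (Snap25, Syt1, Rbfox3, Slc17a7 and Camk2a), beside 6.69% of all genes called lower. The part of neurons in the falls of Slc1a2 and Slc4a4 was not tested.

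The other 15 identity genes did not pass, and in each the groups overlapped. The closest was Sox9, the transcription factor of the astrocyte lineage, with a log2 fold change of -0.19 (edgeR adjusted p = 0.0643). It passed without Q140 3 (-0.23, adjusted p = 0.0292) and without Q140 4 (-0.23, adjusted p = 0.0302). The water channel Aqp4 had 162 to 259 CPM in wild types (median 194) and 198 to 253 in Q140 (median 229). Wild type 4 was the highest of all 12 animals for Aqp4, and the log2 fold change of 0.18 did not pass (SE 0.0904, edgeR adjusted p = 0.214). The BMP target Id3 had 0.32 and the gap junction gene Gjb6 0.36 (adjusted p 0.0831 and 0.140), and without wild type 4 both passed, with 0.39 and 0.52 (adjusted p 0.0392 and 0.00872), as did Aqp4 with 0.26 (0.0407).

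Other genes for the handling of glutamate and potassium did not pass. Glul had a log2 fold change of -0.17 (adjusted p = 0.206) and the second glutamate transporter, Slc1a3, -0.11. Kcnj10, the inward-rectifier potassium channel of astrocytes, had 0.06, from 200 ± 11.5 to 209 ± 28.8 CPM (SD, n = 6 each), and Atp1b2 had 0.03. The lipid enzyme Acsbg1 had 0.15, the folate enzyme Aldh1l1 0.14, the main gap junction gene Gja1 0.07 and the neurotensin receptor Ntsr2 0.05. Without Q140 5, Acsbg1 and Aldh1l1 passed with 0.21 each (adjusted p 0.00989 and 0.0433). The amino acid transporter Slc7a10 had 0.03, Aldoc -0.04 and the growth factor receptor Fgfr3 -0.06. Over the 19 identity genes 12 fold changes were positive and 7 negative, with a median of 0.05.

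**Figure D3:**
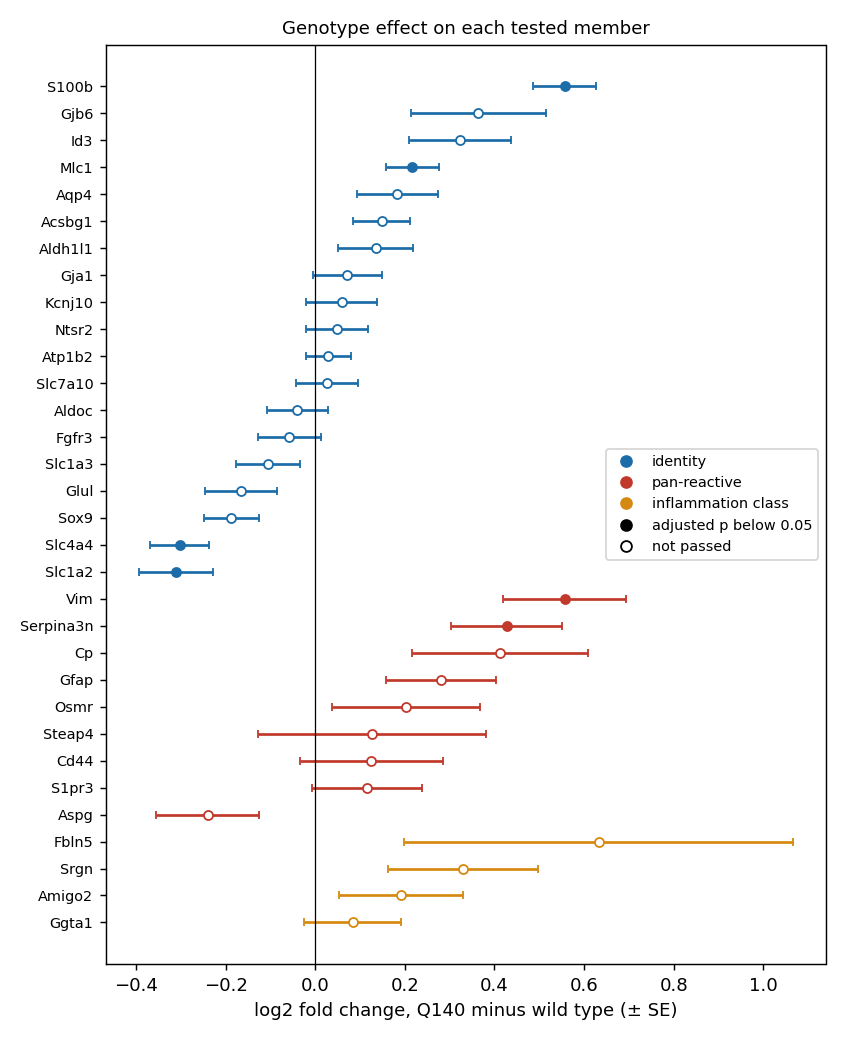
Log2 fold change of each of the 32 tested genes, Q140 minus wild type, with bars of 1 standard error; filled points passed at an adjusted p below 0.05. The identity genes spread to both sides of 0, from -0.31 for Slc1a2 to 0.56 for S100b, and 12 of the 13 tested reactive genes lie to the right of 0.

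Of the 13 tested reactive genes, 2 rose, both of the pan-reactive class, and none fell, beside 4.5% and 6.69% of all genes. Vim encodes vimentin, an intermediate filament of reactive astrocytes and also of endothelial and meningeal cells (ENSMUSG00000026728, chromosome 2 from 13573927 to 13582826). It ranged from 23.5 to 59.6 CPM in wild types with a median of 33.4, and from 47.3 to 65.3 in Q140 with a median of 52.8. Wild type 4 lay within the Q140 range, wild type 5 just under it, and the other 4 wild types well below. The means were 37.6 ± 13.2 and 53.9 ± 6.39 CPM (SD, n = 6 each), and the rise was 0.56 on the log2 scale (SE 0.138, edgeR adjusted p = 0.0201).

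Markers of meningeal fibroblasts differed widely between animals. The 12 genes summed to 34.98 to 470.5 CPM in wild types, lowest in wild type 3 and highest in wild type 4, and to 183 to 489 in Q140. Fold changes were positive for 11 of 12, 0 of 12 passed, and only Slc47a1 was at 0 anywhere, in at least 1 wild type. The same 2 wild types held the lowest and the highest Vim. Endothelial and mural markers summed to 435 to 657 CPM in wild types and 534 to 662 in Q140. All 12 of their fold changes were positive and 1 of 12 rose (Ly6c1), beside 4.5% of all genes called higher. The 5 markers of perivascular macrophages summed to 4.25 to 28.5 CPM in wild types, again lowest in wild type 3 and highest in wild type 4, and to 14.3 to 32.1 in Q140. All 5 fold changes were positive, with a median log2 fold change of 0.63, 0 of 5 passed and none was at 0. The part of these cells in the results for Vim and the other reactive genes was not tested. Without wild types 3 and 6 together Vim had a log2 fold change of 0.40 and did not pass (adjusted p = 0.118).

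Serpina3n, a secreted serine protease inhibitor that is a common marker of reactive astrocytes, ranged from 6.23 to 11.2 CPM in wild types (median 7.47) and from 9.76 to 11.8 in Q140 (median 10.4). Only wild type 4 reached the Q140 range. The log2 fold change was 0.43 (SE 0.124, edgeR adjusted p = 0.0396), from means of 7.87 ± 1.86 and 10.5 ± 0.718 CPM (SD, n = 6 each). It did not pass in 8 of the 12 fits that leave out 1 animal (adjusted p 0.0674 to 0.0941). The gene (ENSMUSG00000021091, chromosome 12 from 104406729 to 104414329) sits in a cluster of close relatives, so reads that match several of them could be split or dropped by the authors' counting.

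Gfap, the filament gene that defines reactive astrocytes, had 188 to 306 CPM in wild types (median 214) and 219 to 336 in Q140 (median 270). The groups overlapped widely, with wild type 4 above 4 of the 6 Q140 animals. Its log2 fold change of 0.28 (SE 0.123, means 229 ± 43.8 and 276 ± 50.6, SD, n = 6 each) did not pass, with an edgeR adjusted p of 0.160. The remaining pan-reactive genes did not pass either. The copper oxidase Cp had 0.41 (adjusted p = 0.195), the oncostatin M receptor Osmr 0.20, the hyaluronan receptor Cd44 0.13, the metal reductase Steap4 0.13, the lipid receptor S1pr3 0.11 and the asparaginase gene Aspg -0.24. Without wild type 4, Cp passed with 0.58 (adjusted p = 0.0410).

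All 4 genes of the inflammation class had positive fold changes and none passed. Fbln5, an elastic fibre protein, had 0.63 with an SE of 0.433, the widest error of the 32, and ranged from 1.18 to 12.7 CPM in wild types. Its extremes again fell in wild types 3 and 4. Srgn, a proteoglycan core protein, had 0.33, the adhesion gene Amigo2 0.19 and the sugar transferase Ggta1 0.08. Over the 13 reactive genes tested, 12 fold changes were positive, with a median of 0.20.

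Lcn2 and Timp1, an iron-binding lipocalin and a metalloprotease inhibitor raised in strongly reactive astrocytes, were too low to test in the main fit. Lcn2 had 17 reads over the 6 wild types, 0 in the 3 females and 9 at most, and 65 reads over the 6 Q140 animals, 3 to 17 in each. Timp1 had 26 reads over the wild types, 1 to 9 in each, and 44 over Q140, 1 to 13 in each. For both genes the groups overlapped, and no difference was tested in the main fit. The fit without the filter on low counts held both genes, and its result for them is not given here. Syn1, a neuronal gene, overlaps Timp1 on the opposite strand at 656 CPM in wild types, with 0 shared exonic bases.

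**Figure D4:**
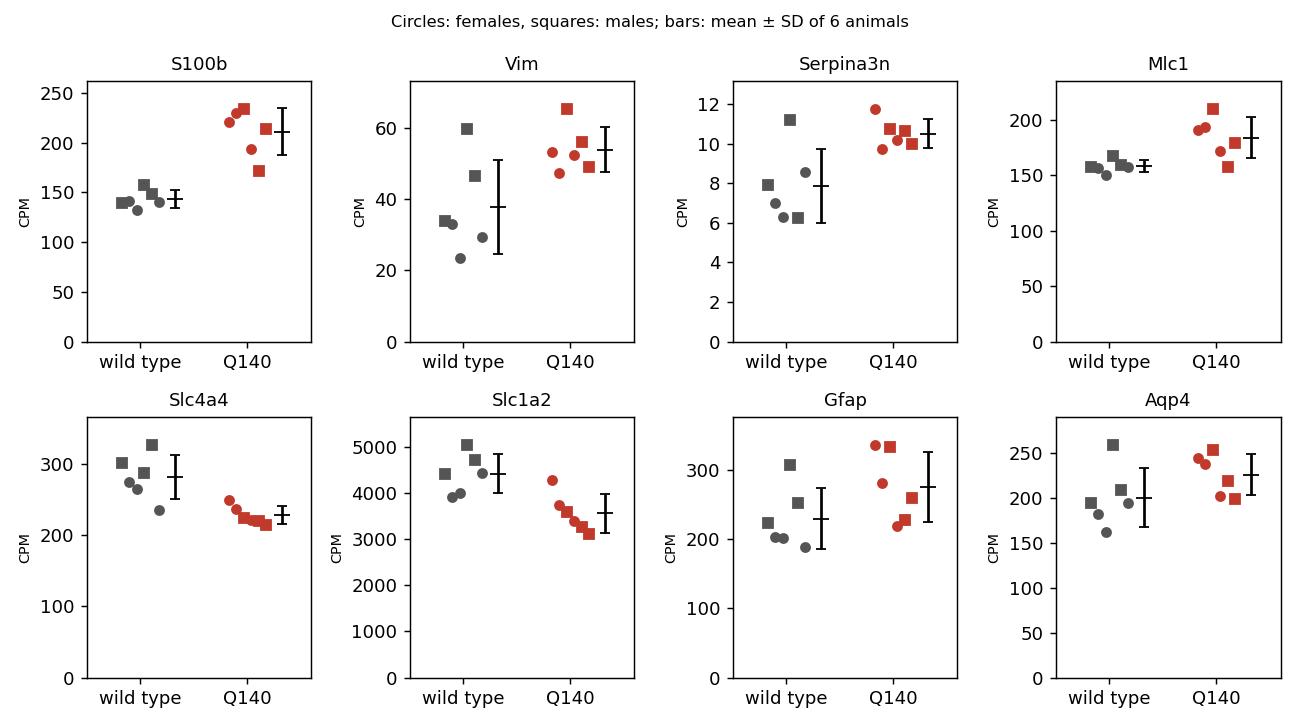
CPM of the 6 genes that passed and of Gfap and Aqp4 in each animal, circles for females and squares for males, with the mean and SD of 6 animals beside each group; each axis starts at 0. S100b alone separates all 6 Q140 animals (172 to 234) from all 6 wild types (133 to 158).

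Animal names begin with letters that the labels leave unexplained, and this prefix is uneven between genotypes. RFckQ is on 4 wild types and 1 Q140 animal, RFQ is on 1 wild type but 3 Q140 animals, FMQ is on 1 wild type, and no prefix is on 2 Q140 animals. Only RFckQ and RFQ hold both genotypes, each with 1 animal of the rarer genotype. These are Q140 4 in RFckQ and wild type 4 in RFQ. As given above, wild type 4 was the highest wild type for 12 of the 19 identity genes and 7 of the 9 pan-reactive genes. The fit with the prefix and the fit within animals named RFckQ or RFQ therefore draw the genotype effect from the same animals. They are not separate checks, and fewer animals inform them than the main fit. With the prefix as a covariate Slc4a4 still passed, with a log2 fold change of -0.34 (adjusted p = 0.0179). The other 5 kept their direction without passing: S100b 0.44 (0.0597), Slc1a2 -0.43 (0.0629), Vim 0.38 (0.435), Serpina3n 0.24 (0.533) and Mlc1 0.14 (0.515). Among the animals named RFckQ or RFQ alone, S100b had 0.44 (0.0923), Slc1a2 -0.42 (0.0813), Slc4a4 -0.34 (0.0347), Vim 0.38 (0.483), Serpina3n 0.24 (0.559) and Mlc1 0.14 (0.559). In that covariate fit positive fold changes numbered 7 of the 19 identity genes and 8 of the 13 reactive genes, and Gfap had -0.04, against 12 and 12 without the prefix.

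The sexes were compared in 1 fit in which each genotype of each sex was its own group. In females, S100b rose by 0.64 on the log2 scale (SE 0.0976, edgeR adjusted p = 0.00348) and Vim by 0.83 (SE 0.173, adjusted p = 0.0140), with none lower, beside 7.05% of all genes called in females. In males, S100b rose by 0.47 (SE 0.0977, adjusted p = 0.0334), while Slc4a4 had -0.47 (SE 0.0682, adjusted p = 0.00673) and Slc1a2 -0.51 (SE 0.0926, adjusted p = 0.0193), both lower, beside 1.4% of all genes called in males. Vim in females lost its call without wild type 3 (0.71, adjusted p = 0.0644) and without Q140 2 (0.88, adjusted p = 0.0512). The male call of S100b was lost without wild type 1, wild type 5, Q140 3 or Q140 6 (adjusted p 0.121 to 0.156), and that of Slc1a2 without wild type 1, wild type 4, wild type 5 or Q140 6 (0.0511 to 0.111). Slc4a4 in males passed in each of the 12 fits without 1 animal.

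No gene passed for the difference between the sexes: 0 of the 32, and 0 of all 17725 genes, by edgeR. Unadjusted p was below 0.05 for 7 of the 32, against 9.21% of all genes. These were Slc4a4 (0.00349), Slc1a2 (0.00967), Osmr (0.0256), Glul (0.0260), Srgn (0.0373), Kcnj10 (0.0404) and Vim (0.0421). In all 7 the female value was the more positive. The count of 7 depended on single animals: it was 2 without wild type 3 or Q140 6, 3 without wild type 4, Q140 1 or Q140 5, 4 without wild type 5, 11 without wild type 1 and 15 without Q140 3.

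The values by sex show where those 7 genes differ. Slc4a4 had 236 to 275 CPM in wild type females and 222 to 249 in Q140 females, and 288 to 327 against 214 to 225 in males, the male groups alone being separate. Vim had 23.5 to 33.0 CPM in wild type females and 47.3 to 53.3 in Q140 females, with male groups of 33.8 to 59.6 and 49.0 to 65.3 that overlapped. Osmr had 5.96 ± 0.912 and 8.76 ± 1.62 CPM in females, and 8.14 ± 1.76 and 7.25 ± 1.58 in males (SD, n = 3 each). Over the 32 genes 30 had the more positive fold change in females, against 50.7% of all genes, with a median log2 fold change of 0.22 in females and -0.0036 in males. Leaving out 1 animal moved the female median between 0.14 (without wild type 3) and 0.28 (without Q140 4). The male median turned sign, from -0.11 (without Q140 3) to 0.096 (without wild type 4), and 7 to 21 of the 32 were positive in males. It was also positive with library totals only (0.053), upper-quartile factors (0.0089) and no filter on low counts (0.0036). The exceptions to the 30 were S1pr3 and Sox9. Over the 18 alternatives run for the sexes, the count of 30 ranged from 26 (without Q140 5) to 32 (without the filter on low counts). The fit without the filter also held Lcn2 and Timp1, so its 32 and its male median are over 34 genes. With a filter the count was 31 at most (without wild type 1, Q140 2 or Q140 3). The 18 alternatives did not include the name prefix. Genotype, sex and name prefix are partly tied and cannot be told apart fully. All 3 Q140 males are RFQ, 2 of the 3 wild type females are RFckQ, and the 2 Q140 animals without a prefix are female. Wild type 3, the lowest wild type for many of these genes, is female. Wild type 4, the highest for many, is male. None of the fits left out wild types 3 and 4 together.

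**Figure D5:**
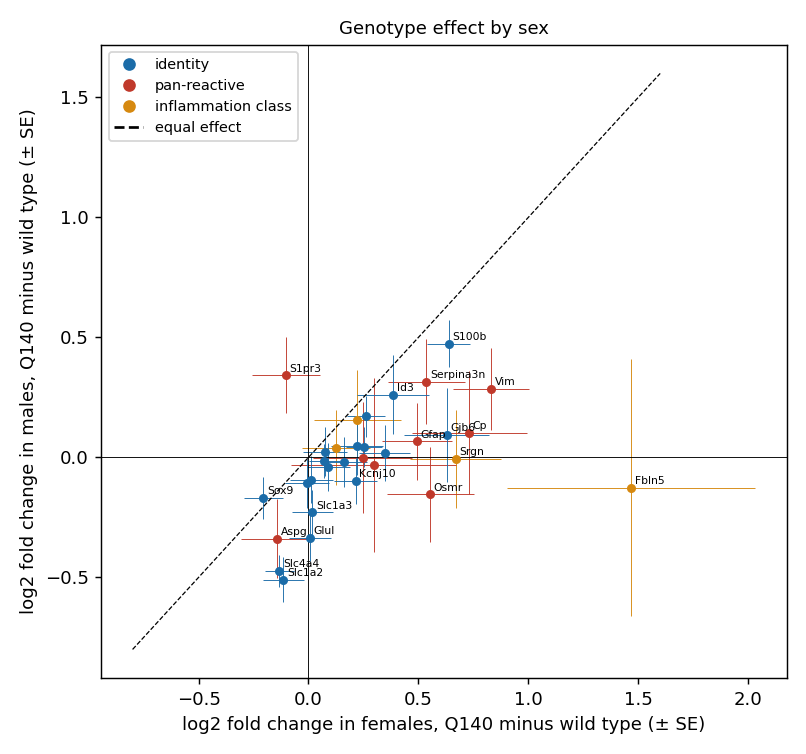
Log2 fold change in females (horizontal) against males (vertical) for the 32 tested genes, with bars of 1 standard error and a dashed line of equal effect. The errors come from the fit of all groups, each of 3 animals, which share 1 estimate of the spread. Genes far from the middle are named. Most points lie below the dashed line, among them Slc4a4 (-0.13 in females and -0.47 in males) and Vim (0.83 and 0.29), and S1pr3 lies above it.

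Related genes give a fuller view of the same functions. Of 138 further genes in 7 lists 132 were tested, and 8 rose, 9 fell and 115 did not pass, against 4.5% and 6.69% of all genes. Among 42 other astrocyte-enriched genes 3 fell and none rose. They were the membrane protein Ttyh1 (log2 fold change -0.17, adjusted p = 0.0350), the BMP antagonist Chrdl1 (-0.29, 0.0205) and the Notch target Hes5 (-0.41, 0.0437). In the list of 18 genes for glutamate, ions and energy, 1 fell, the carbonic anhydrase Car2, which had 177 ± 12.3 CPM in wild types and 150 ± 13.2 in Q140 (SD, n = 6 each), a change of -0.24 on the log2 scale (adjusted p = 0.0225). Car2 is also strongly expressed in oligodendrocytes, and their part in its fall was not tested.

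Partners of the end-foot and of the reactive classes moved upward where they passed. The counts for each list stand beside 4.5% of all genes called higher. Of 13 end-foot and junction genes 2 rose, the dystrophin complex member Sgcb (0.14, adjusted p = 0.0235, groups separate) and the vascular laminin Lama2 (0.27, 0.0403). A further list of reactive genes was not limited to the pan-reactive class. Of its 10 tested genes 2 rose, the small heat shock gene Hspb1 (0.87, SE 0.201, adjusted p = 0.0141) and the amine oxidase Maob (0.22, 0.0319). Of 7 tested inflammation-class genes 2 rose, the class I antigen-presenting gene H2-D1 (0.47, 0.00465) and the interferon-induced GTPase Iigp1 (0.51, 0.0496). H2-D1 belongs to a family of near-identical genes, so its reads are uncertain. Microglial markers, which such genes can accompany, summed to 384 to 474 CPM in wild types and 418 to 510 in Q140. Fold changes were positive for 9 of 10 and 1 of 10 rose (Tmem119), beside 4.5% of all genes called higher. The part of microglia was not tested.

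Genes of the injury class and of the signals upstream did not move together. The counts for each list stand beside 4.5% of all genes called higher and 6.69% called lower. Of 6 tested genes listed here for the injury class 1 fell, the prostaglandin synthase Ptgs2, which neurons also express with activity (-0.61, adjusted p = 0.0197). Of 36 cytokine and BMP signalling genes 2 rose, the interleukin receptor Il1r1 (0.45, 0.0432) and the ligand Tgfb2 (0.30, 0.00675). The 4 that fell were Lif (-0.90, 0.0406), a cytokine that acts on astrocytes, Socs3 (-0.43, 0.0353), a STAT-induced inhibitor of cytokine signalling, the TGF-beta effector Smad3 (-0.34, 0.0370) and Id2 (-0.27, 0.0287). Lif was low, at 0.798 ± 0.267 CPM in wild types and 0.429 ± 0.129 in Q140 (SD, n = 6 each). Its groups were separate only narrowly, with 0.619 CPM in the lowest wild type and 0.604 in the highest Q140 animal. With the name prefix as a covariate 0 of the 132 passed, beside 134 of all 17725 genes.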

How the data were processed

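Whole piriform cortex of 12 mice was measured, 6 per genotype and each a separate animal. Per the labels' protocols, total RNA was made into libraries with a stranded TruSeq kit. Per the submitters' processing notes, STAR 2.7.5c, SAMtools 1.10 and HTSeq 0.12.3 were used with GRCm38. The deposited counts are whole reads per gene, not normalized. The FPKM values were made by the authors per gene length and library total, and served here for levels between genes and, on the log2 scale, in 2 of the alternative tests.

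Counts of the 17725 genes kept by the default filter of edgeR 4.0.16 (minimum count 10, R 4.3.3) were fitted after TMM scaling with sex as a covariate, and the sexes in a model of 4 groups. Each edgeR SE is the size of the log2 fold change divided by the square root of its quasi-likelihood F. Positions came from GENCODE M21. The genotype fit was also run on simulated counts, whose result is not given here. These held no effect of sex or name prefix and no shifts of whole animals, so that run cannot address them. The 34 genes, all lists and the naming rule (all members, and of each further list up to 4 genes each way that passed, by smallest p) were chosen with earlier results of these data known. For the markers of oligodendrocytes and neurons more than 4 are named, beyond that rule. Alternatives were other size factors, filters, covariates, DESeq2 1.42.0, limma 3.58.1 and each animal left out. Not used as a main block was the number in the animals' names, whose meaning the labels do not give.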

Additional observations from a re-analysis of the deposited data

Results flagged for a closer look

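In groups of 6 animals, a value was singled out where its gap to the nearest other animal was, as a share of the group's range, above Dixon's 95% limit. Of 68 groups of values, 3 met this, and chance alone would give about 1 in 20. Gjb6, a gap junction gene, was 46.7 CPM in wild type 4 against 23.2 to 31.4 in the other wild types. The amino acid transporter Slc7a10 was 25.3 CPM in Q140 5 against 32.5 to 36.6 in the other Q140 animals. Steap4 was 0.833 CPM in Q140 5 against 0.397 to 0.494 in the others.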

How the results depend on the processing

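Besides the fit reported, 27 alternatives were run, 12 of them leaving out 1 animal. S100b passed in 24, Slc4a4 in 26, Vim in 22, Slc1a2 in 17, and Mlc1 and Serpina3n in 15 each, and none of the 6 changed direction. The number of these genes called higher, 4 in the main fit, was 0 with the name prefix, 0 with the name number as a replicate block, 0 within animals named RFckQ or RFQ and 1 without wild types 3 and 6, and 2 to 8 without single animals. The number called lower, 2, was 1 with the prefix, 0 with the replicate block, 1 within those animals, 1 without wild types 3 and 6, 1 on log2 FPKM with a pseudocount of 1, and 1 to 2 without single animals. The labels do not give the meaning of the number, and the replicate block left 1 call among all genes.

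Related genes called higher, 8, numbered 20 with library totals only, 15 without a filter, 5 without a covariate, 4 with the well column, 2 without wild types 3 and 6, 18 in DESeq2, 15 in limma voom, 15 and 16 on log2 FPKM (pseudocounts 0.1 and 1), 0 with prefix, with the replicate block or within the named animals, and 3 to 21 without single animals. Those called lower, 9, numbered 5 with library totals, 5 with the well column, 3 without wild types 3 and 6, 2 and 1 on log2 FPKM, 0 with prefix, replicate block or within the named animals, and 2 to 8 without single animals. In females, genes higher, 2, numbered 13 without a filter, 0 without wild types 3 and 6 and 1 to 4 without single animals, and in males 1 became 0 without wild types 3 and 6 and 0 to 1 without single animals. Leaving out wild types 3 and 6 keeps 1 wild type female, which is assumed to vary like the other groups. Without a filter, genes too low for the main fit were tested too, Lcn2 and Timp1 among them. The sexes were compared under 18 of the alternatives, those of scaling, filter and animals left out. Males lower ranged from 1 to 3, and females lower and differences between the sexes stayed at 0 to 0.

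Over all genes 40.2% of 1982 calls were higher, against 66.4% of 2446 with library totals only and 67.6% and 67.8% on log2 FPKM. The prefix left 134 calls, the named animals alone 81 and the fit without wild types 3 and 6 left 862. Signs turned for genes that did not pass in either fit. With the prefix these were Aqp4 -0.0027, Gja1 -0.060, Kcnj10 -0.034, Ntsr2 -0.029, Atp1b2 -0.025, Gfap -0.036, Osmr -0.021, Cd44 -0.16 and Steap4 -0.0026. Within the named animals they were Aqp4 -0.0016, Gja1 -0.059, Kcnj10 -0.033, Ntsr2 -0.028, Atp1b2 -0.024, Gfap -0.035, Osmr -0.021, Cd44 -0.16 and Steap4 -0.0020. With the replicate block they were Aldh1l1 -0.0013, Gja1 -0.015, Ntsr2 -0.0019, Atp1b2 -0.034, Slc7a10 -0.020, Gfap -0.026, Cd44 -0.027 and Ggta1 -0.021. Without wild types 3 and 6 they were Kcnj10 -0.024, Slc7a10 -0.0087 and Steap4 -0.098, and Aldoc was 0.0074 with library totals and 0.0024 on log2 FPKM at either pseudocount. Over the fits without 1 animal, Steap4 ran from -0.032 to 0.25, Ntsr2 from -0.011 to 0.11 and Aldoc from -0.081 to 0.014. The cause was not tested. The well column and the fit within named animals were chosen after seeing the data. Depth limits Lcn2, Timp1 and Steap4 most, each under 1 CPM. Among the related genes called, Lif was also under 1 CPM.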
